A study of Oryzias latipes with 27 samples.

Results

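The miRNAs described here belong to the families miR-458 to miR-462, miR-722 to miR-740 and miR-2184 to miR-2189, which were first named in fish. Members were selected by name, with any letter, copy and arm, and the families were chosen with earlier results of these data known. The tables held 38 such mature miRNAs of 437 in all, from 18 families and 21 precursor names, 17 of which had both arms. Numbers of these ranges with no entry in the tables were not analysed here. A mature miRNA is a short RNA cut from one arm (5p or 3p) of a hairpin precursor. It is loaded into an Argonaute protein, pairs through its seed with sites in messenger RNAs and lowers the output of those it pairs with. As an example of a known role, miR-722 in zebrafish lowers the Rac2 transcript and restrains neutrophil migration.

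The libraries came from gonads of medaka (Oryzias latipes), a fish with XX females and XY males, sampled 10 (D10), 30 (D30) or 120 days (D120) after hatching. There were 27 small RNA libraries, 3 in each of 9 groups. WT_Fe_Ov was the gonad of wild-type XX females and WT_Ma_Te that of wild-type XY males. MT_Fe_Ov was the gonad of XY fish whose DMY gene, the Y-linked switch for male development in this species, had been disrupted with TALENs in a stable line. The deposited labels name them DMY knockout males of female sex with ovarian tissue, and their development as females is taken from the study. All 3 genotypes were compared within a stage, and whether gonads of several fish were pooled is not given in the sources used here.

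The total miRNA count of a library lay between 2518868 and 8818687 at D10, between 54535 and 810120 at D30 and between 1054214 and 3517578 at D120. These totals count reads assigned to miRNAs and are not sequencing depth. In the study's mapping summary a smaller share of reads matched miRNAs in every D30 library than in any of D10 or D120. The smallest share was that of replicate 2 of MT_Fe_Ov at D30. What lay behind these shares, and their part in the D30 levels, was not tested. Levels are given as RPM, the count per 1000000 miRNA counts of the library. A count of 0 allows up to 3 counts, which was 0.340 RPM in the library with the highest total. It was 55.0 RPM in the library with the lowest total, replicate 2 of MT_Fe_Ov at D30, and these floors cover counting error only. D10 samples held tissue next to the gonad: muscle miRNAs (the miR-1, miR-133, miR-206 and miR-499 families) summed to 89201 to 156474 RPM there, against 757 to 8915 RPM at D30 and D120, and the gonadal miR-202 to 112 to 473 RPM. At D120, miR-202 summed to 241577 to 270705 RPM in WT_Fe_Ov, 634 to 1105 RPM in MT_Fe_Ov and 1157 to 1471 RPM in WT_Ma_Te, and at D30 to 8647 to 12639 RPM, 5153 to 5910 RPM and 127278 to 140263 RPM, so it did not mark the ovary of both genotypes. The D30 ovary libraries stood apart in their low counts: WT_Fe_Ov had 216 to 224 miRNAs with a count and 10 to 24 with 1 to 9 counts, against 334 to 351 and 100 to 106 in WT_Ma_Te of similar or lower total. Whether low counts were removed before deposit was not tested. A 0 in these libraries is given as counted, and every bound set against the D30 ovaries holds only if a 0 stands for at most 3 counts. Replicate 3 of MT_Fe_Ov at D30 held 50827 RPM of nervous tissue miRNAs (miR-9, miR-124, miR-153 and miR-219) against 93.2 and 385 in the other two, and replicate 3 of WT_Ma_Te at D120 held 22613 RPM of gut miRNAs (miR-192, miR-194 and miR-215) against 1291 and 1681. Without the D30 library, MT_Fe_Ov had 15 members called from D10 to D30 and 10 from D30 to D120 (18 and 15 with it). With it, 55.4% and 53.1% of all miRNAs tested were called in these steps. How many of all miRNAs were called without it is not given, so neither fall is read as particular to the members. The number called at D30 was 4 against WT_Ma_Te and 4 against WT_Fe_Ov either way, though not for the same members throughout. miR-724-3p was lost against WT_Ma_Te and miR-734-3p against WT_Fe_Ov.

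The 38 members together made up a small share of the counts, and most of it came from a pair of miRNAs. Their summed level was 7153 to 14183 RPM at D10 and 9619 to 20106 RPM at D120. At D30 it was 12153, 8525 and 6498 RPM in WT_Fe_Ov, 17675, 21609 and 24979 RPM in WT_Ma_Te and 68089, 43697 and 21450 RPM in MT_Fe_Ov, so the 3 genotypes did not overlap except that replicate 3 of MT_Fe_Ov lay within the testis range. The most abundant member was miR-2188-5p in every library of D10 and D120, with 33.0% to 72.4% of the members' counts, and miR-725-3p in every library of D30, with 43.1% to 95.1%. Of the 38 members, 6 had a count in all 27 libraries, 4 had one at D10 only, 8 never reached 10 RPM and 1, miR-459-3p, had none in any library. At D30, 21 members were at 0 in all WT_Fe_Ov libraries, 24 in all MT_Fe_Ov libraries and 7 in all WT_Ma_Te libraries, against 182, 156 and 61 of the 437 miRNAs.

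**Figure D1:**
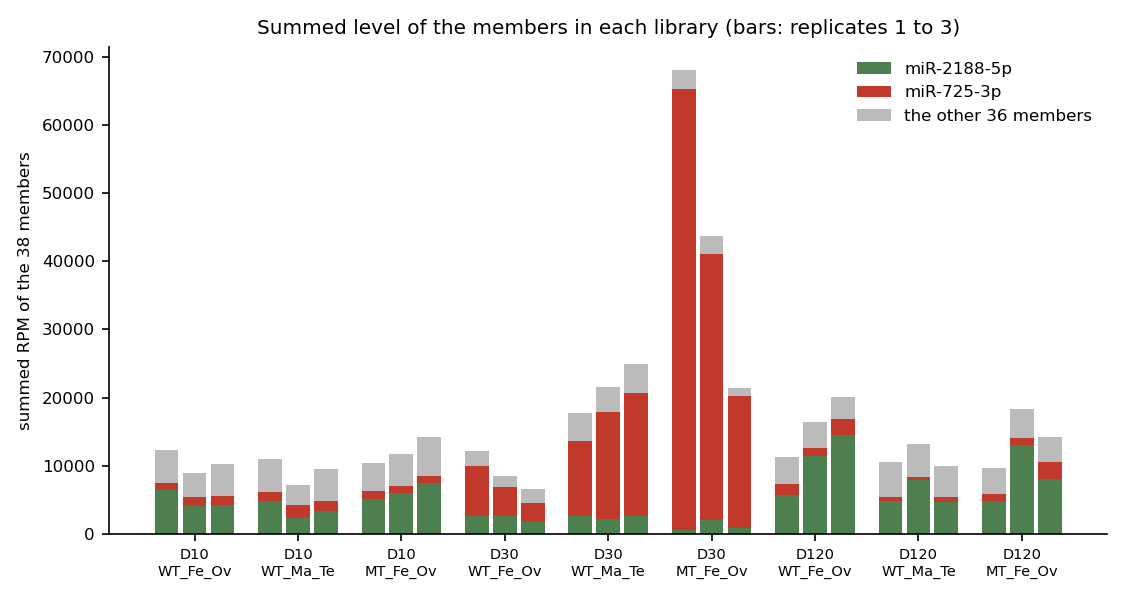
Summed RPM of the 38 members (y axis) in each of the 27 libraries, 3 bars per group for replicates 1 to 3, split into miR-2188-5p, miR-725-3p and the remainder. The bars of MT_Fe_Ov at D30 reach 68089, 43697 and 21450 RPM, and miR-725-3p takes up most of each.

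**Figure D2:**
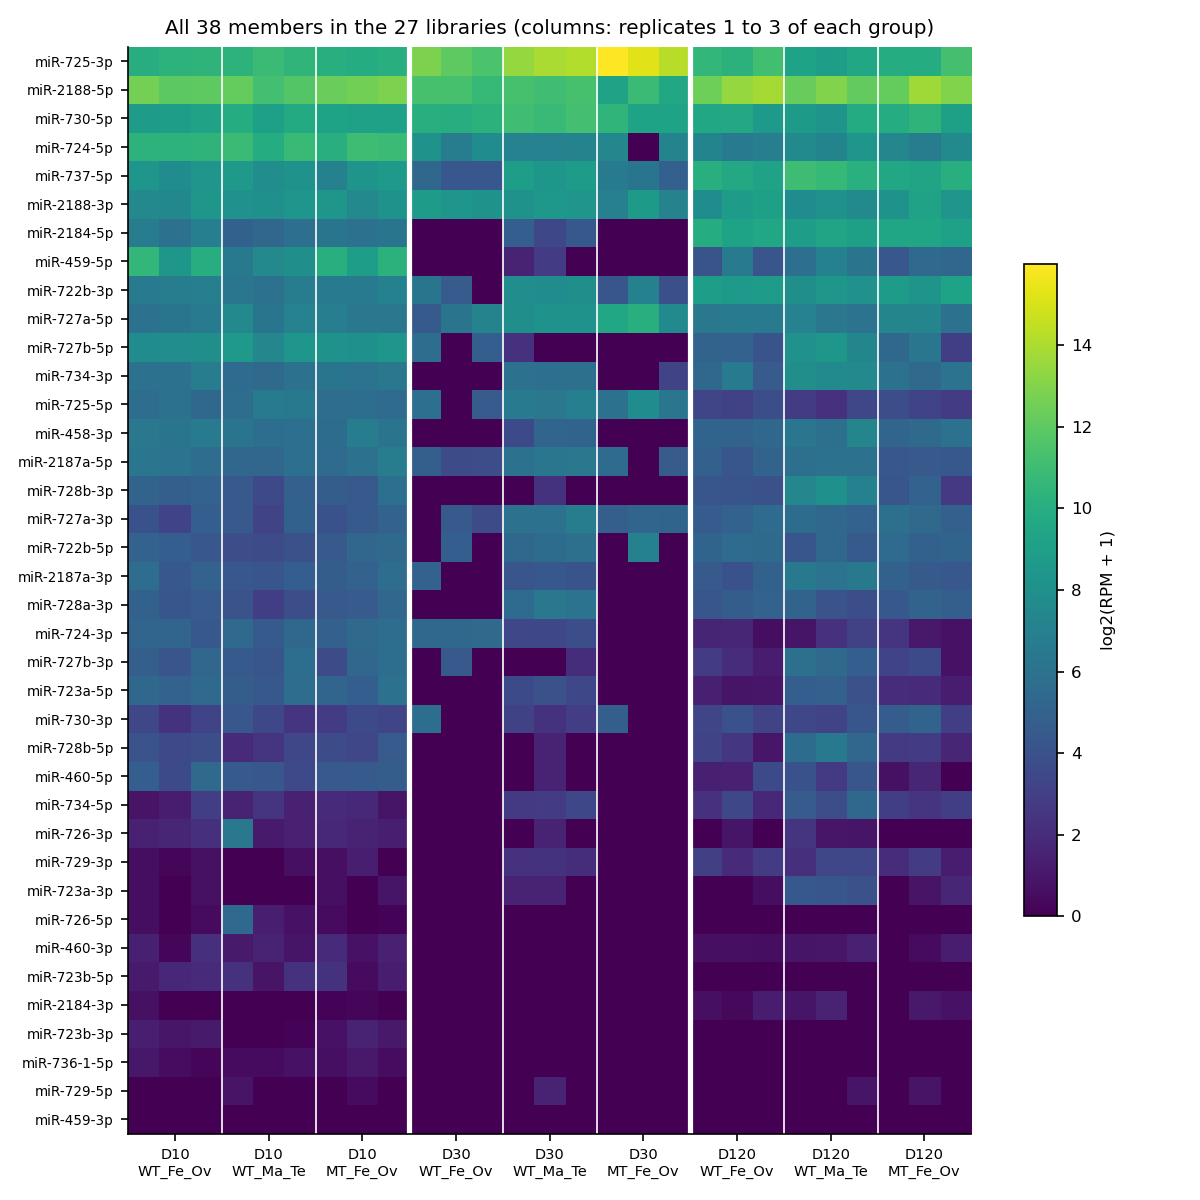
log2(RPM + 1) of the 38 members (rows, ordered by mean level) in the 27 libraries (columns, replicates 1 to 3 of each group). Dark cells at D30 mark the members at or near 0, of which there were more in both ovary groups than in testis.

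No mature sequences of these miRNAs were at hand, so none is printed. The RefSeq annotation of medaka (assembly ASM223467v1) placed precursors of 4 of the families. mir-459 lies on chromosome 2 (1298973 to 1299077) and mir-729 on chromosome 23 (23826796 to 23826895), both outside other annotated genes. mir-458 lies on chromosome 10 (28422447 to 28422541) within LOC101173638, and mir-460 on chromosome 17 (28139758 to 28139842) within pth1r, the gene of a parathyroid hormone receptor.

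Differences between groups were tested with edgeR over every miRNA that reached 10 counts in 3 or more libraries. A miRNA counted as called when its adjusted p did not exceed 0.05 and its level differed by 1 or more on the log2 scale. At D10, 31 members were tested and none was called in any of the 3 genotype contrasts, where 0% of the 388 miRNAs tested were called. At an unadjusted p below 0.05 stood 10 members for WT_Fe_Ov against WT_Ma_Te, 10 for MT_Fe_Ov against WT_Ma_Te and 0 between both ovary groups, of 76, 72 and 11 miRNAs. DESeq2 called 2, 2 and 0 members, of 23, 9 and 0 miRNAs. At D30, 16 members passed the filter, and 22 did not because their counts were low. For WT_Fe_Ov against WT_Ma_Te 4 were called, all lower in the ovary, against 46.8% of all miRNAs tested (16.4% higher and 30.4% lower). The contrast of MT_Fe_Ov with testis called 4, with 1 higher and 3 lower, against 31.6% of all miRNAs tested (13.6% higher and 18.0% lower). The contrast of both ovary groups called 4, with 3 higher and 1 lower in MT_Fe_Ov, against 28.4% of all miRNAs tested (18.8% higher and 9.60% lower). In each contrast 2 of the 4 reached 10 counts in the libraries of 1 group alone (miR-728a-3p and miR-734-3p in testis, miR-724-3p in WT_Fe_Ov), so the filter let them in through the group where they were high. With RLE scaling, 1 member was called higher and 4 lower in WT_Fe_Ov than in WT_Ma_Te, of 44 higher and 71 lower in all. With library totals as scale, 1 was called higher and 5 lower in MT_Fe_Ov than in WT_Ma_Te, of 24 higher and 61 lower in all against 34 and 45 with TMM, and the median of all miRNAs moved from -0.29 to -0.60.

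At D120, 28 members were tested. The contrast of WT_Fe_Ov with testis called 16, with 7 higher and 9 lower, against 38.1% of all miRNAs tested (21.2% higher and 16.9% lower). The contrast of MT_Fe_Ov with testis called 15, with 4 higher and 11 lower, against 36.0% of all miRNAs tested (18.9% higher and 17.2% lower). Both contrasts share the testis libraries, and both counts hold the arms of miR-723a, which reached 10 counts in testis alone. Between the ovary groups no member was called by edgeR or DESeq2 and none had an unadjusted p below 0.05, against 0.581% of all miRNAs tested called and 16 of 344 with such a p. The median log2 fold change of the tested members was -0.37 for WT_Fe_Ov and -0.46 for MT_Fe_Ov against testis, and that of all miRNAs 0.04 and -0.01. Scaling by library totals alone moved the medians of all miRNAs to -0.54 and -0.52. The calls were then 1 higher and 12 lower for WT_Fe_Ov and 1 higher and 11 lower for MT_Fe_Ov, of 35 higher and 102 lower and 34 higher and 97 lower in all, against 73 and 58 and 65 and 59 with TMM. The higher call that remained in each was miR-725-3p. Without replicate 1 of WT_Ma_Te the calls fell to 7 and 6, and without replicate 3, the library with gut miRNAs, to 10 and 9. The number over all miRNAs in these runs is not given, so neither fall is read as particular to the members. Immune cell miRNAs (miR-142, miR-146, miR-150, miR-155 and miR-223) summed to 22284 to 27155 RPM in the ovary libraries and to 3895 to 8109 RPM in testis at this stage, and their part in the members' differences was not tested. Fewer cells of a type and less RNA per cell cannot be told apart in these bulk samples.

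**Figure D3:**
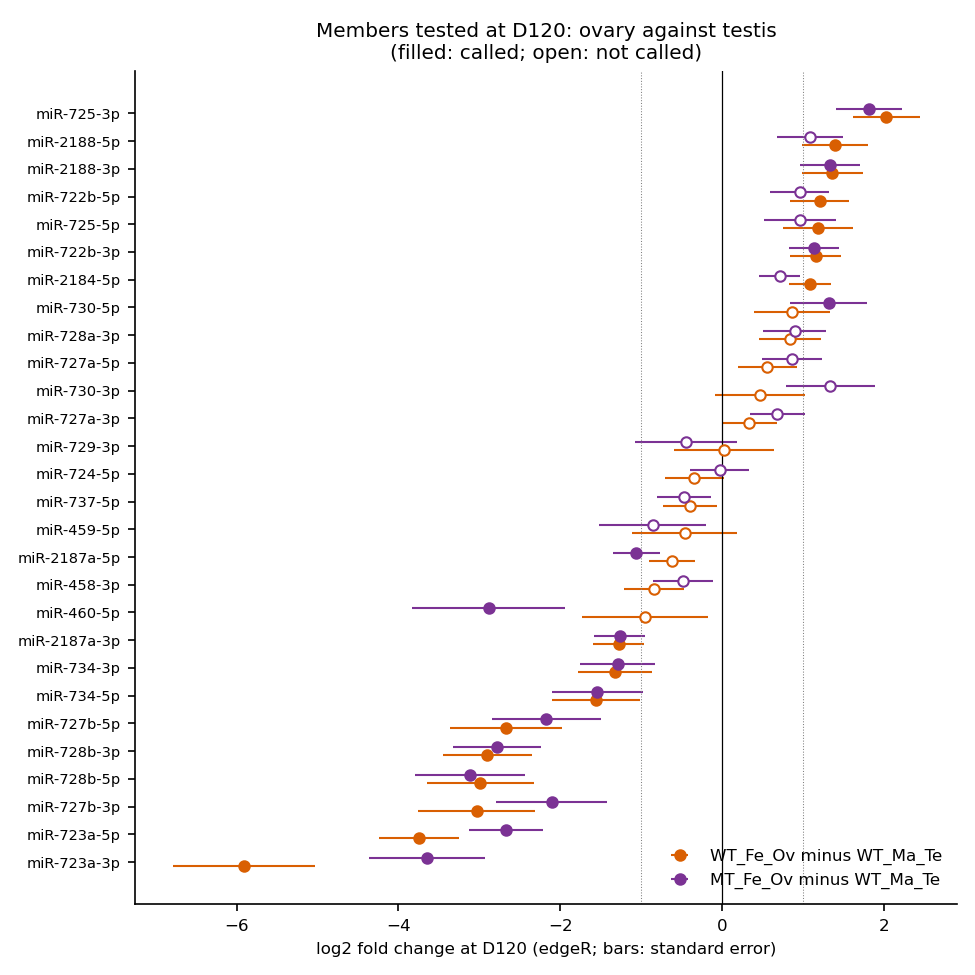
log2 fold changes (x axis, with standard errors) of the 28 members tested at D120, each ovary group against WT_Ma_Te. Filled points are called: 16 for WT_Fe_Ov and 15 for MT_Fe_Ov, from miR-725-3p at the top (2.03 and 1.81) to miR-723a-3p at the bottom.

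miR-725-3p was highest in the XY ovary at D30 and lowest in the testis at D120. At D10 it was at 1008, 1315 and 1330.4 RPM in WT_Fe_Ov, 1308, 1901 and 1425 in WT_Ma_Te and 1085, 948 and 1047 in MT_Fe_Ov. At D30 it was at 7401, 4228 and 2802 RPM in WT_Fe_Ov, 11129, 15736 and 17980.2 in WT_Ma_Te and 64761, 39094 and 19385 in MT_Fe_Ov. The wild-type ovary was lowest, the testis between and the XY ovary highest, with no overlap between the groups. The total miRNA count ran the other way. Its mean was 650782 for the wild-type ovary, 442335 for the testis and 171000 for the XY ovary. Within the testis and the XY ovary the library with the highest total had the lowest level. Within the wild-type ovary the library with the highest total had the highest level. The part of the total count in this order was not tested, and no alternative run set the libraries to equal totals. The difference of MT_Fe_Ov from WT_Fe_Ov (log2 fold change 3.40 ± 0.45 (SE), edgeR adjusted p = 6.15e-04) kept its call under every alternative run, with 3.65 without the replicate that held nervous tissue miRNAs. MT_Fe_Ov against testis (log2 fold change 1.80 ± 0.42 (SE), edgeR adjusted p = 0.0117) lost the call without replicate 1 of WT_Ma_Te. WT_Fe_Ov against testis (log2 fold change -1.60 ± 0.42 (SE), edgeR adjusted p = 0.0105) lost it without replicate 2 or 3 of either group.

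At D120 the order of miR-725-3p was another. It was at 1542, 1229.5 and 2219 RPM in WT_Fe_Ov, 960.2, 941 and 2507 in MT_Fe_Ov and 609, 479 and 729 in WT_Ma_Te. Every ovary library was above every testis library, and the ovary groups overlapped. It was higher than in testis in WT_Fe_Ov (log2 fold change 2.03 ± 0.41 (SE), edgeR adjusted p = 0.00312) and in MT_Fe_Ov (log2 fold change 1.81 ± 0.41 (SE), edgeR adjusted p = 0.00588), under every alternative run including scaling by totals. The log2 fold change in MT_Fe_Ov was 1.14 without its replicate 3, the highest library of that group. From D10 to D30 it rose in all 3 genotypes, with log2 fold changes of 2.01 in WT_Fe_Ov, 3.05 in WT_Ma_Te and 5.48 in MT_Fe_Ov, and from D30 to D120 it fell in all 3, with log2 fold changes of -1.41, -4.68 and -4.70. The fall in WT_Fe_Ov lost its call without replicate 1 of that group at D30 (-0.99, edgeR adjusted p = 0.0684). Red blood cell miRNAs (miR-144 and miR-451) summed to 5025 to 6433 RPM in WT_Fe_Ov, 18444 to 30723 RPM in WT_Ma_Te and 7782 to 27964 RPM in MT_Fe_Ov at D30, and their part in these levels was not tested. The miRNAs whose level followed miR-725-3p most closely over the 27 libraries, after subtraction of stage means, were miR-29b-2a-5p (Pearson r = 0.83) and miR-223-3p (0.71). This is a description over points that share library and total count.

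**Figure D4:**
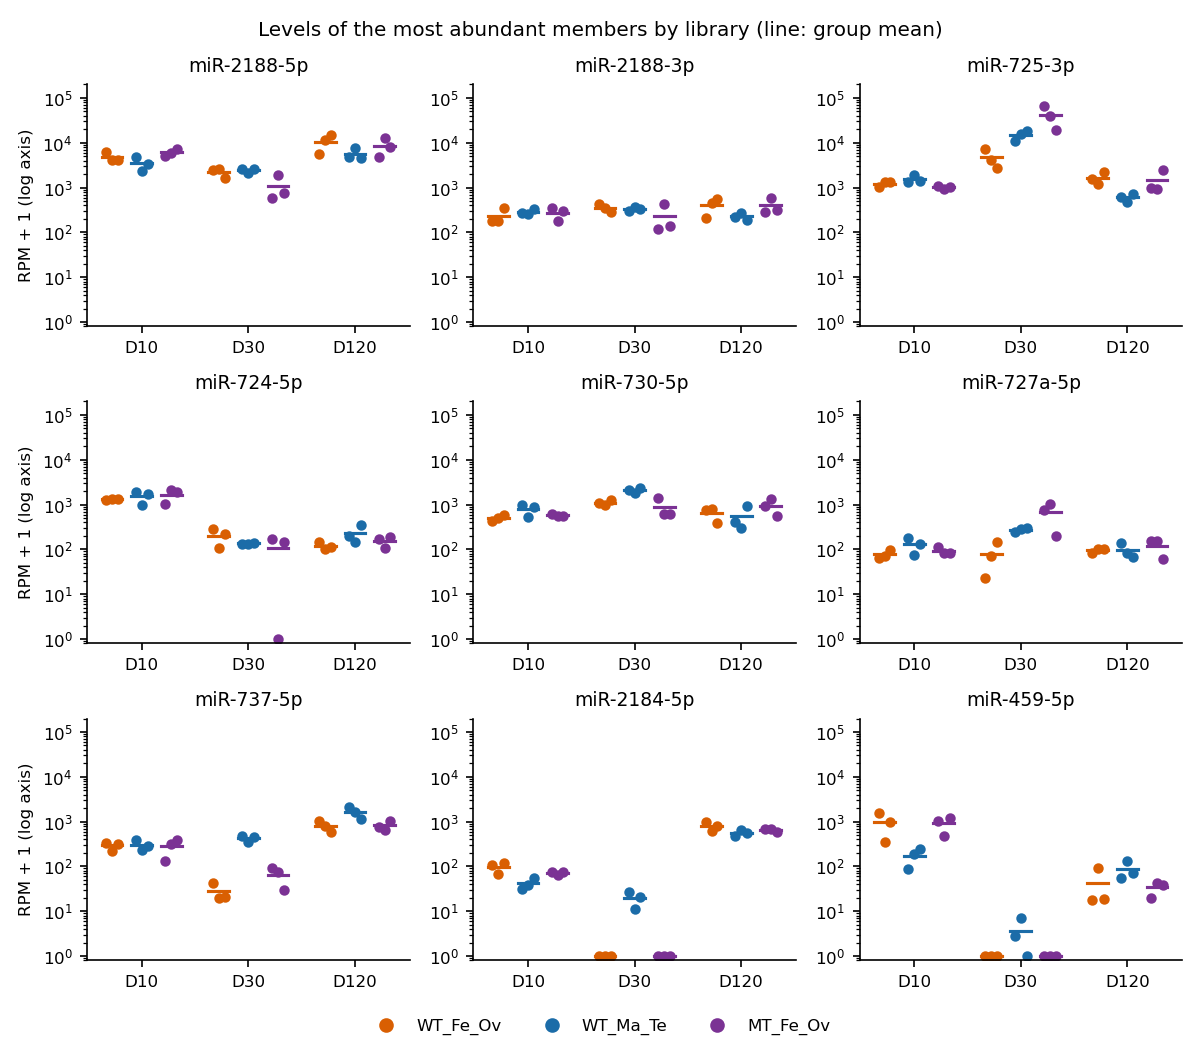
RPM + 1 (log axis) of the 9 members among the 5 most abundant at any stage, each point a library and each line a group mean. miR-725-3p peaks at D30, where MT_Fe_Ov is highest, while miR-2184-5p and miR-459-5p are at 0 in all D30 ovary libraries.

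miR-2188-5p was the most abundant member at D10 and D120. It was at 6389, 4029 and 4193 RPM in WT_Fe_Ov, 4774, 2359 and 3379 in WT_Ma_Te and 5118, 6007 and 7380.4 in MT_Fe_Ov at D10. At D30 it was at 2527, 2613 and 1672 RPM in WT_Fe_Ov, 2544, 2167 and 2616 in WT_Ma_Te and 587, 1944 and 772 in MT_Fe_Ov. At D10 WT_Fe_Ov overlapped both other groups, while every MT_Fe_Ov library was above every testis library, and at D30 a pair of MT_Fe_Ov libraries lay below all others. At D120 it was at 5698, 11394 and 14562 RPM in WT_Fe_Ov, 4847, 7837 and 4587 in WT_Ma_Te and 4822, 13060 and 8016 in MT_Fe_Ov, with overlapping groups. The call for WT_Fe_Ov against testis (log2 fold change 1.39 ± 0.41 (SE), edgeR adjusted p = 0.0188) was lost with library totals as scale (0.87) and without replicate 2 or 3 of WT_Fe_Ov or replicate 1 or 3 of the testis.

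Its partner arm miR-2188-3p was lower, and was the miRNA most like miR-2188-5p over the libraries after subtraction of stage means (r = 0.72), before miR-153c-5p (0.68). The stage means themselves differed, at 4848, 1938 and 8314 RPM for the 5p arm and 265, 305 and 344 RPM for the 3p arm at D10, D30 and D120. At D10 and D30 its libraries lay between 121 and 437 RPM. At D120 it was at 213, 450.9 and 547 RPM in WT_Fe_Ov, 216, 275 and 188 in WT_Ma_Te and 285, 599 and 323 in MT_Fe_Ov, which put all 3 MT_Fe_Ov libraries above testis. It was called higher in MT_Fe_Ov (log2 fold change 1.33 ± 0.37 (SE), edgeR adjusted p = 0.0173) and in WT_Fe_Ov (log2 fold change 1.36 ± 0.37 (SE), edgeR adjusted p = 0.0143), and both calls were lost with library totals as scale and without replicate 1 or 3 of the testis, and that in MT_Fe_Ov also without its replicate 2. The 5p arm held 90.3% to 97.3% of the counts of this precursor at D10, 82.2% to 89.6% at D30 and 94.4% to 96.6% at D120. Most like the 3p arm were miR-2188-5p (r = 0.72) and miR-153c-5p (0.70).

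miR-737-5p was lower in both D30 ovaries than in testis. It was at 42.0, 19.1 and 19.4 RPM in WT_Fe_Ov, 93.2, 73.3 and 28.5 in MT_Fe_Ov and 484, 349 and 451.4 in WT_Ma_Te. The floors of these MT_Fe_Ov libraries were 28.0, 55.0 and 8.54 RPM, so its levels there rest on few counts. All 6 ovary libraries were below all testis libraries, while the ovary groups overlapped. It was lower than testis in WT_Fe_Ov (log2 fold change -3.93 ± 0.60 (SE), edgeR adjusted p = 7.48e-04) and in MT_Fe_Ov (log2 fold change -2.44 ± 0.59 (SE), edgeR adjusted p = 0.0133). The first call held under every alternative run, and the second was lost at an adjusted p of 0.01 and without replicate 1 or 3 of the testis. Summed miRNAs of muscle, nervous tissue, gut and red blood cells were also higher in WT_Ma_Te than in WT_Fe_Ov at D30, and those of skin lower. Muscle was at 7381 to 8915 against 1100 to 1185 RPM, and nervous tissue at 2270 to 3422 against 114 to 296 RPM. MT_Fe_Ov held 757 to 2946 and 93.2 to 50827 RPM of these. Their part in the difference was not tested.

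The level of miR-737-5p at D10 was 131 to 390.0 RPM over the 9 libraries, with all groups overlapping. At D120 it was at 1027, 809 and 599 RPM in WT_Fe_Ov, 757, 655 and 1044 in MT_Fe_Ov and 2090.4, 1661 and 1140.0 in WT_Ma_Te. RPM was higher in every testis library than in every ovary library, but the TMM-scaled difference was small and not called (log2 fold changes -0.40 and -0.47, edgeR adjusted p = 0.357 and 0.276). In WT_Fe_Ov the level fell from D10 to D30 by 3.39 on the log2 scale and rose to D120 by 5.08. Most like it over the libraries were miR-137-1-3p (r = 0.87) and miR-20a-2-3p (0.85).

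miR-728a-3p and miR-734-3p were counted in every testis library at D30 and were at or under the floor in both ovary groups. miR-728a-3p was at 46.9, 81.6 and 65.9 RPM in WT_Ma_Te and at 0 in all 6 ovary libraries. Set against the floor of 3 counts per library, the testis mean was at least 13.6-fold higher than WT_Fe_Ov and at least 2.12-fold higher than MT_Fe_Ov, if no low counts were removed. The second bound uses a mean of floors. The floor of replicate 2 of MT_Fe_Ov alone, 55.0 RPM, was above the testis library at 46.9 RPM, so its 0 shows no lower level than that library. miR-728a-3p was tested because of the testis libraries, so its calls are no further support and are not given. At D10 and D120 the member was at 6.75 to 37.3 RPM in every library of every group.

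miR-734-3p was at 61.9, 55.1 and 59.3 RPM in WT_Ma_Te at D30, at 0 in all WT_Fe_Ov libraries and at 0, 0 and 8.54 in MT_Fe_Ov. The testis mean was at least 12.3-fold higher than WT_Fe_Ov, under the same condition. It was 1.93 times the floor of MT_Fe_Ov, which is no lower bound, as that group had counts in a library. miR-734-3p too was tested because of the testis libraries. Between the ovary groups it was called as higher in MT_Fe_Ov, but that call rests on 3 reads in replicate 3, the library with nervous tissue miRNAs, and was lost without it. Both groups were at or under the floor, so no fold is given.

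At D120 miR-734-3p was at 40.3, 97.5 and 23.4 RPM in WT_Fe_Ov, 62.5, 45.6 and 65.8 in MT_Fe_Ov and 238, 189.7 and 181 in WT_Ma_Te. The testis was above both ovary groups with no overlap. It was lower in WT_Fe_Ov (log2 fold change -1.32 ± 0.46 (SE), edgeR adjusted p = 0.0374) and in MT_Fe_Ov (log2 fold change -1.29 ± 0.46 (SE), edgeR adjusted p = 0.043). Leaving out any 1 library of the testis ended both calls, as did replicate 1 or 3 of WT_Fe_Ov for the first and any library of MT_Fe_Ov for the second. Its partner arm miR-734-5p went the same way with fewer counts, at 23.4, 13.3 and 39.2 RPM in testis against 2.44 to 9.95 RPM over the 6 ovary libraries.

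For miR-727a, b and miR-728a, b, among the members named as copies, the order of a and b by RPM changed between groups and stages. This is a description, and differences between copies were not tested. Near-identical copies can share reads, and how reads matching several miRNAs were treated is not stated. miR-727a-5p at D30 was at 22.2, 68.7 and 142.4 RPM in WT_Fe_Ov, 244, 279.6 and 297 in WT_Ma_Te and 764, 1045 and 193.6 in MT_Fe_Ov. MT_Fe_Ov was above WT_Fe_Ov with no overlap (log2 fold change 3.18 ± 0.78 (SE), edgeR adjusted p = 0.0129), also without replicate 3 (3.60), and its own lowest library was that replicate. At D10 the libraries of all groups held 62.5 to 182 RPM and at D120 61.4 to 151 RPM, with overlapping groups. Most like miR-727a-5p were miR-204-5p (r = 0.76) and its own 3p arm (0.71).

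miR-727b-5p was called between testis and both ovaries at D120. It was at 274, 349 and 159.6 RPM in WT_Ma_Te, 32.7, 31.6 and 17.1 in WT_Fe_Ov and 39.8, 75.4 and 6.65 in MT_Fe_Ov. All testis libraries were above all ovary libraries. It was lower in WT_Fe_Ov (log2 fold change -2.68 ± 0.69 (SE), edgeR adjusted p = 0.0107) and in MT_Fe_Ov (log2 fold change -2.17 ± 0.68 (SE), edgeR adjusted p = 0.0263), and the second call was lost without replicate 1 or 2 of the testis or replicate 1 of MT_Fe_Ov. miR-727a-5p was not called in these contrasts (0.56 and 0.86, edgeR adjusted p = 0.243 and 0.0836), and the difference between the copies was not tested. miR-727b-5p stood above miR-727a-5p in all 9 libraries of D10, at 170 to 383 RPM, and in the 3 testis libraries of D120, while miR-727a-5p stood above it in 8 of the 9 libraries of D30.

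Levels of both arms of miR-728b were higher in the adult testis. miR-728b-3p was at 168, 254 and 126 RPM in WT_Ma_Te, 18.0, 16.8 and 14.6 in WT_Fe_Ov and 18.3, 31.7 and 5.18 in MT_Fe_Ov at D120. miR-728b-5p was at 50.3, 86.3 and 37.5 RPM in WT_Ma_Te, 8.71, 4.83 and 0.975 in WT_Fe_Ov and 5.68, 5.80 and 2.22 in MT_Fe_Ov. Neither arm overlapped between testis and ovary. All 4 differences were called under every alternative run, with log2 fold changes of -2.90 and -2.79 for the 3p arm and -2.99 and -3.11 for the 5p arm in WT_Fe_Ov and MT_Fe_Ov (edgeR adjusted p = 0.00224, 0.00309, 0.00513 and 0.00495). At D30 the 3p arm had counts in 1 library alone, a testis at 4.08 RPM, where miR-728a-3p was at 81.6 RPM.

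**Figure D5:**
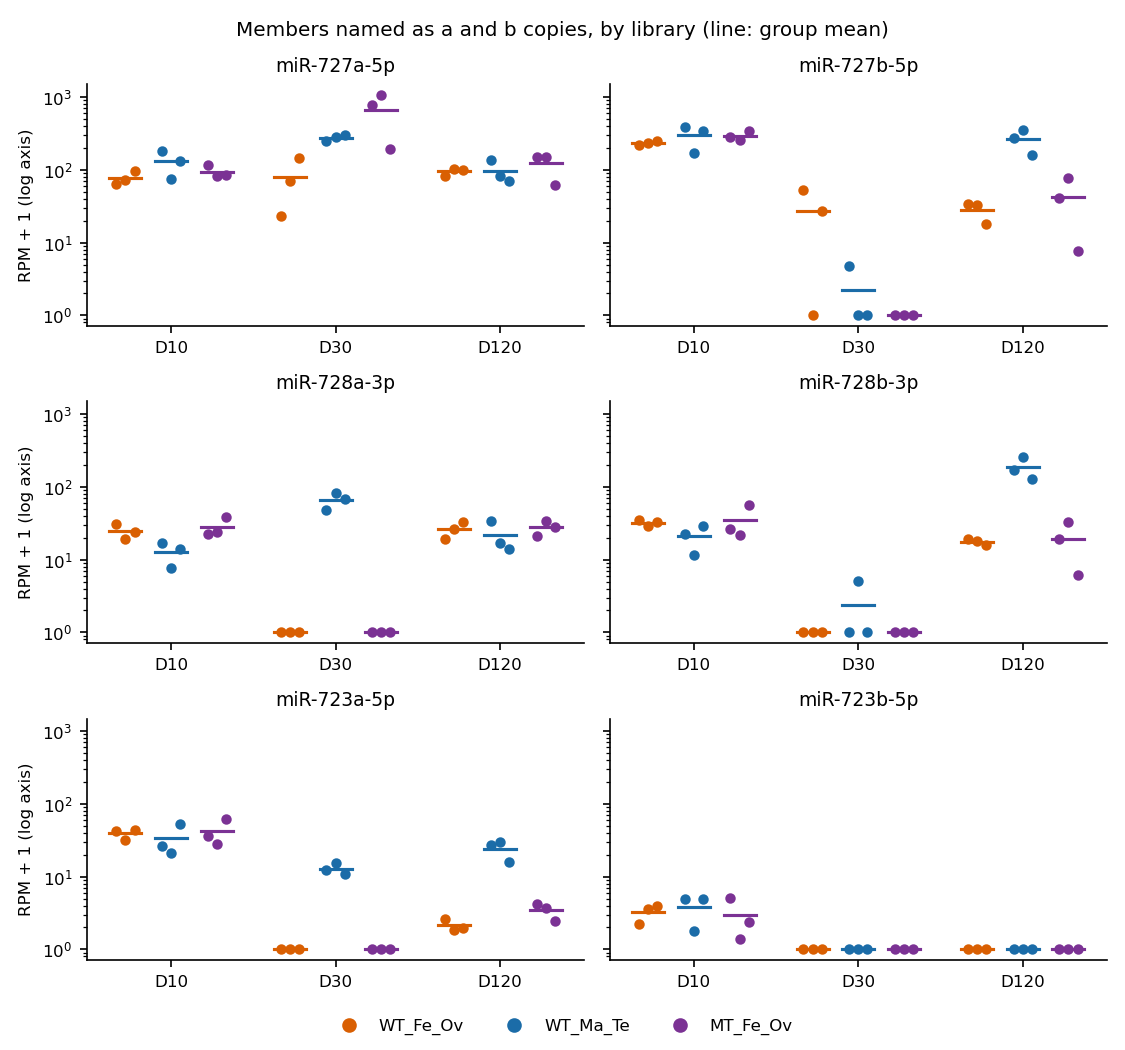
RPM + 1 (log axis) by library for 3 pairs of members named as a and b copies, with group means as lines. miR-728b-3p is highest in WT_Ma_Te at D120 (126 to 254 RPM), while miR-728a-3p is highest in WT_Ma_Te at D30 (46.9 to 81.6 RPM).

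Both arms of miR-723a were higher in the adult testis than in either ovary. At D120 miR-723a-5p was at 26.0, 28.5 and 14.8 RPM in WT_Ma_Te and the 3p arm at 19.9, 18.0 and 14.8 RPM. In WT_Fe_Ov they were at 1.63, 0.853 and 0.975 and at 0, 0 and 0.488 RPM, and in MT_Fe_Ov at 3.16, 2.71 and 1.48 and at 0, 0.774 and 2.22 RPM. Every testis library was above every ovary library for each arm. The testis means were 17.5 (5p) and 13.4 (3p) times the floor of WT_Fe_Ov, and the 3p mean 10.0 times that of MT_Fe_Ov. Since these ovary groups had counts, the ratios are no lower bounds. Both arms reached 10 counts in testis alone and were tested because of it, so their calls are no further support, and without any 1 testis library neither arm could be fitted. At D10 the 5p arm was at 20.2 to 61.7 RPM and held 98.5% to 100% of the counts of the precursor, while in testis at D120 it held 50% to 61.2%, from 30, 30 and 17 counts of the 5p arm and 23, 19 and 17 of the 3p arm. miR-723b-5p, its copy, was seen at D10 only, at no more than 4.12 RPM.

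The arms of miR-2187a had their highest adult RPM in the testis. At D120 miR-2187a-3p was at 88.4, 66.4 and 88.1 RPM in WT_Ma_Te, 22.3, 15.1 and 30.2 in WT_Fe_Ov and 29.7, 21.7 and 19.2 in MT_Fe_Ov, with no overlap between testis and ovary. It was lower in WT_Fe_Ov (log2 fold change -1.28 ± 0.31 (SE), edgeR adjusted p = 0.00824) and in MT_Fe_Ov (log2 fold change -1.26 ± 0.32 (SE), edgeR adjusted p = 0.00954), under every alternative run. miR-2187a-5p was at 59.0, 61.7 and 61.1 RPM in WT_Ma_Te, 28.3, 18.5 and 32.7 in WT_Fe_Ov and 19.6, 21.3 and 19.96 in MT_Fe_Ov. Its testis libraries were above all ovary libraries too, with a call in MT_Fe_Ov (log2 fold change -1.06 ± 0.29 (SE), edgeR adjusted p = 0.015) and none in WT_Fe_Ov (-0.62, edgeR adjusted p = 0.0953). In testis the 5p arm held 77.3% to 83.3% of the counts of the precursor at D30 and 40.0% to 48.1% at D120. The D30 shares rest on few counts of the 3p arm, at a mean of 18.5 RPM where the mean floor was 7.21 RPM. This shift between arms was not tested.

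miR-722b-3p was higher in both adult ovaries. Its D120 level was 471, 388 and 447 RPM in WT_Fe_Ov, 431, 307 and 614 in MT_Fe_Ov and 251, 353 and 270.4 in WT_Ma_Te. WT_Fe_Ov lay above testis without overlap, and 1 MT_Fe_Ov library lay within the testis range. It was called in WT_Fe_Ov (log2 fold change 1.15 ± 0.31 (SE), edgeR adjusted p = 0.0129) and MT_Fe_Ov (log2 fold change 1.14 ± 0.31 (SE), edgeR adjusted p = 0.015), and both calls were lost with library totals as scale and without replicate 1 of the testis, replicate 1 of WT_Fe_Ov (the first) or replicate 3 of MT_Fe_Ov (the second). At D30 it was at 229, 214 and 244 RPM in testis against 0 to 128 RPM over the ovary libraries, a difference that was not called (edgeR adjusted p = 0.0838 and 0.234). The immune cell miRNAs were higher in the adult ovaries as given above, and their part in this level was not tested.

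miR-2184-5p and miR-459-5p were at 0 in the D30 ovaries and were counted again at D120. miR-2184-5p was at 105, 65.3 and 119 RPM in WT_Fe_Ov, 30.0, 38.5 and 55.2 in WT_Ma_Te and 72.7, 64.5 and 74.7 in MT_Fe_Ov at D10. At D30 it was at 26.2, 10.2 and 19.8 RPM in testis and at 0 in all ovary libraries. Its adult level was 956, 619 and 781 RPM in WT_Fe_Ov, 487, 636 and 548 in WT_Ma_Te and 673, 673 and 577 in MT_Fe_Ov. Adult levels were above all earlier ones in each genotype. From D30 to D120 the mean rose at least 165-fold in WT_Fe_Ov and 21.0-fold in MT_Fe_Ov, under the condition on removed counts, and in testis the log2 fold change was 4.85 (edgeR adjusted p = 7.85e-08). At D120 it was called higher in WT_Fe_Ov than in testis (log2 fold change 1.08 ± 0.26 (SE), edgeR adjusted p = 0.00729), but its RPM overlapped and the call was lost with library totals as scale and without replicate 1 of either group. Most like it over the libraries were miR-153a-5p (r = 0.95) and miR-19a-2-3p (0.94). This r takes in the 0 of all D30 ovary libraries, which miRNAs absent there but counted in testis would share. At D30, 182 miRNAs were at 0 in all WT_Fe_Ov libraries and 156 in all MT_Fe_Ov libraries. How far r rests on absence was not tested.

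miR-459-5p, which is found in the gut of zebrafish, was at 1530.4, 354 and 983 RPM in WT_Fe_Ov, 1042, 485 and 1218 in MT_Fe_Ov and 88.9, 184 and 248 in WT_Ma_Te at D10. Both female groups lay above the male group with no overlap. edgeR did not call the differences (log2 fold changes 2.28 ± 0.54 and 2.20 ± 0.54, adjusted p = 0.0857 and 0.156), while DESeq2 called both (adjusted p = 0.00185 and 0.00465). Without replicate 2 of WT_Fe_Ov edgeR called the first (2.65, adjusted p = 0.0272). Gut miRNAs at D10 summed to 35784, 30464 and 48787 RPM in WT_Fe_Ov, 48673, 38826 and 44786 RPM in MT_Fe_Ov and 13740, 27838 and 36310 RPM in WT_Ma_Te, and their part in this difference was not tested. At D30 the member was at 0 in all ovary libraries and at 1.87, 6.12 and 0 RPM in testis, and at D120 at 16.9 to 130.0 RPM over the 9 libraries. In WT_Fe_Ov the D10 mean was at least 201-fold higher than at D30, if no low counts were removed there. Gut miRNAs in WT_Fe_Ov summed to 253 to 452 RPM at D30, below their D10 level, and their part in this fall was not tested either. Replicate 3 of WT_Ma_Te at D120, the library with most gut miRNAs, held 71.5 RPM of it against 55.5 and 130.0 in the other testes. Most like it over the libraries were miR-219-5p (r = 0.71) and miR-301a-5p (0.69).

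miR-724-5p was highest at D10. There it was at 1299.8, 1313 and 1318 RPM in WT_Fe_Ov, 1873, 961 and 1735 in WT_Ma_Te and 1016, 2066 and 1912 in MT_Fe_Ov. Over the libraries of D30 and D120 it was at 0 to 343 RPM, below every D10 library. The only 0 was in the library with the lowest total miRNA count. From D10 to D30 it fell, with log2 fold changes of -2.65 in WT_Fe_Ov, -3.65 in WT_Ma_Te and -3.48 in MT_Fe_Ov (edgeR adjusted p = 2.00e-04, 1.57e-05 and 2.99e-05). Most like it were let-7c-3p (r = 0.90) and let-7g-1-3p (0.81). At D30 its partner arm miR-724-3p was at 42.0, 42.0 and 45.3 RPM in WT_Fe_Ov, 9.37, 10.2 and 13.2 in WT_Ma_Te and 0 in MT_Fe_Ov. Set against the mean floor of MT_Fe_Ov (30.5 RPM), the WT_Fe_Ov mean was at least 1.41-fold that of MT_Fe_Ov, if no low counts were removed. The floor of replicate 2 of MT_Fe_Ov alone, 55.0 RPM, was above every WT_Fe_Ov library, so its 0 shows no lower level. For testis against MT_Fe_Ov the same ratio to the floor was 0.358, so a difference was not detectable at these total counts. The arm reached 10 counts in the WT_Fe_Ov libraries alone and was tested because of them, so its calls at D30 support nothing further.

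miR-730-5p was counted in every library. Its libraries held 436 to 971 RPM at D10 and 304.5 to 1327 RPM at D120. At D30 it was at 1101, 1001 and 1236 RPM in WT_Fe_Ov, 2141, 1828 and 2316 in WT_Ma_Te and 1408, 605 and 626 in MT_Fe_Ov, with testis above both ovary groups, though neither difference was called (edgeR adjusted p = 0.105 and 0.107). At D120 it was called higher in MT_Fe_Ov than in testis (log2 fold change 1.32 ± 0.47 (SE), edgeR adjusted p = 0.0442), with overlapping RPM, and the call was lost with RLE scaling, library totals and the replicate block, and without replicate 1 or 2 of either group. Most like it over the libraries were miR-137-1-5p (r = 0.65) and miR-489-5p (0.64).

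Between stages 33 members were tested, with all 27 libraries in 1 fit. From D10 to D30, 20 were called in WT_Fe_Ov, 2 higher and 18 lower, against 74.7% of all miRNAs tested (17.3% higher and 57.4% lower). In WT_Ma_Te, 18 were called, 6 higher and 12 lower, against 60.7% of all miRNAs tested (24.8% higher and 35.8% lower). In the same step 18 were called in MT_Fe_Ov, 2 higher and 16 lower, against 55.4% of all miRNAs tested (15.5% higher and 39.8% lower). The medians of the members' log2 fold changes were -3.26, -0.69 and -4.72, and those of all miRNAs -3.34, -0.36 and -2.07 (with RLE scaling -3.30, -0.65 and -1.95). From D30 to D120, 17 were called in WT_Fe_Ov, 15 higher and 2 lower, against 65.4% of all miRNAs tested (46.9% higher and 18.5% lower). In this step 18 were called in WT_Ma_Te, 13 higher and 5 lower, against 43.6% of all miRNAs tested (30.8% higher and 12.8% lower), and 15 were called in MT_Fe_Ov, 12 higher and 3 lower, against 53.1% of all miRNAs tested (35.3% higher and 17.8% lower). D10 against D30 also compares dissections. For members at 0 in the D30 ovary the fitted fold change depends on the prior count, and the medians and the called counts hold such members. Some called members had a mean at the other stage under the D30 floor, so no change was measurable. From D10 to D30 these included miR-460-3p, miR-723b-3p and miR-734-5p in WT_Fe_Ov and miR-460-5p, miR-728a-3p and miR-728b-5p in MT_Fe_Ov. In testis they included miR-728b-5p and miR-729-3p. From D30 to D120 they included miR-2187a-3p, miR-728a-3p and miR-728b-3p in MT_Fe_Ov.

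Whether a genotype difference itself changed from D30 to D120 was tested as an interaction. For WT_Fe_Ov against WT_Ma_Te 14 of 33 members were called, against 44.9% of all miRNAs tested. For MT_Fe_Ov against WT_Ma_Te 8 were called, against 34.8%, and for MT_Fe_Ov against WT_Fe_Ov 4, against 21.6%. The 4 were miR-724-3p, miR-725-3p, miR-727a-5p and miR-734-3p, the members called between the ovary groups at D30. No member was called between these groups at D120, so the 4 draw on the same D30 libraries and add no support to those calls. miR-734-3p rests on 3 reads in replicate 3 of MT_Fe_Ov at D30, and miR-724-3p had no counts in that group. Without replicate 3 of MT_Fe_Ov at D30, the library with nervous tissue miRNAs, 5 members were called for MT_Fe_Ov against WT_Ma_Te and 3 for MT_Fe_Ov against WT_Fe_Ov. How many of all miRNAs were called in that run is not given.

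Arms of 1 precursor went the same way at D120 where both were called. There, 10 precursors had both arms tested. For WT_Fe_Ov against testis both arms were called in the same direction in 7 of them (miR-2188, miR-722b, miR-723a, miR-725, miR-727b, miR-728b and miR-734) and in opposite directions in 0, against 26 and 0 of the 90 such precursors among all miRNAs. For MT_Fe_Ov against testis it was 5 (miR-2187a, miR-723a, miR-727b, miR-728b and miR-734) and 0, against 22 and 0 of 90. Both counts hold miR-723a, whose arms were tested because of the testis libraries where they were high, so its calls add no support. With library totals as scale the first count was 5 of 10, since miR-2188 and miR-722b lost both arms and miR-725 its 5p arm, while miR-2187a gained, and with the replicate block it was 5, against 28 and 22 of 90. In the testis from D10 to D30, 1 precursor, miR-723a, had arms called in opposite directions, with a 3p arm of at most 1 count in each of these libraries.

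The remaining members were at lower levels. miR-458-3p was at 49.7 to 103 RPM at D10, at 11.2, 36.7 and 32.9 RPM in testis and 0 in ovary at D30, and at 32.4 to 154 RPM at D120. miR-460-5p was at 10.7 to 44.2 RPM at D10 and was called lower in MT_Fe_Ov than in testis at D120 (log2 fold change -2.89 ± 0.95 (SE), edgeR adjusted p = 0.0309), where it was at 0.631, 2.32 and 0 RPM against 15.6, 5.69 and 18.3, a call lost with the replicate block, at 0.01 and without replicate 1 or 3 of MT_Fe_Ov, and which could not be fitted without replicate 1 or 3 of the testis. miR-726-3p and miR-726-5p were high in 1 library, replicate 1 of WT_Ma_Te at D10, at 83.3 and 43.8 RPM. miR-725-5p, miR-722b-5p and miR-727b-3p, partner arms of members above, were called at D120 in the direction of those members in WT_Fe_Ov (log2 fold changes 1.19 for miR-725-5p and -3.03 for miR-727b-3p). miR-725-5p lost this call with library totals as scale (0.62), DESeq2, a minimum of 1 count, the replicate block and an adjusted p of 0.01, and without replicate 1 or 3 of WT_Fe_Ov or replicate 1 or 2 of the testis. miR-722b-5p lost it with library totals (0.66), at 0.01 and without replicate 1 or 3 of the testis. Neither was called in MT_Fe_Ov. miR-729-3p, miR-729-5p, miR-736-1-5p, miR-2184-3p, miR-460-3p, miR-723b-5p, miR-723b-3p and miR-459-3p stayed below 10 RPM in every library. Last, miR-727a-3p and miR-730-3p were called in no genotype contrast.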

How the data were processed

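Small RNA of 17 to 32 nt was sequenced on an Illumina HiSeq instrument, and the authors counted reads per mature miRNA with the mapper and quantifier of miRDeep2 against FishmiRNA, on assembly ASM223467v1. The deposited count table holds these counts, and the deposited RPM values are counts per 1000000 miRNA counts (largest difference on recomputing 4.974e-05). The treatment of reads that match several miRNAs is not given in the sources used here, nor is pooling of fish, so p-values measure only the spread between these samples. The precision of a level follows from the total counts and floors (3 counts) given with the results. In Python 3.11.15 and R 4.3.3, edgeR 4.0.16 (quasi-likelihood F test, TMM, Benjamini-Hochberg adjustment over all miRNAs tested) was run on the counts with a minimum of 10 counts in 3 libraries of the fit. Genotypes were compared in the 9 libraries of a stage, and stages and interactions in all 27. The contrast of WT_Fe_Ov with WT_Ma_Te within a stage was also run on simulated counts. That run covered neither contrasts between stages nor interactions, nor miRNAs absent from a whole group. Alternatives were RLE scaling, library totals, DESeq2 1.42.0, no filter beyond 1 count, an adjusted p of 0.01, the replicate number as a block and leaving out each library. Values in every library were given for the 5 members with the highest mean RPM at each stage and for called members with a mean of at least 50 RPM in a group and no overlap. Others named with values (both arms of miR-723a and miR-726, miR-723b-5p, miR-724-3p, miR-734-5p, miR-458-3p, miR-460-5p, miR-725-5p and miR-727b-3p) were chosen after their values were seen. Similarity is Pearson's r of log2(RPM + 1) after subtraction of stage means. Marker lists for muscle, skin (miR-203 and miR-205, at 71420 to 133797 RPM at D10), gut, red blood cells, immune cells, nervous tissue and gonad were summed in RPM. The members and all lists were chosen with earlier results of these data known. No replicate pair was alike within sampling noise (lowest chi-square per degree of freedom 27.0 over 27 pairs).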

Additional observations from a re-analysis of the deposited data

Results flagged for a closer look

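The interaction terms of edgeR, fitted on all 27 libraries, list members whose difference between groups was not the same at D30 and D120. In the order given below, 42.4%, 24.2% and 12.1% of the members tested were called, against 44.9%, 34.8% and 21.6% of all miRNAs tested. Members were thus called no more often than miRNAs at large. Values are log2 differences, D120 minus D30. For the difference of WT_Fe_Ov from WT_Ma_Te they were miR-2184-5p (9.39), miR-458-3p (7.95), miR-722b-5p (3.38), miR-722b-3p (3.60), miR-724-3p (-3.10), miR-725-5p (2.65), miR-725-3p (3.27), miR-727a-5p (1.93), miR-727a-3p (2.81), miR-727b-5p (-7.17), miR-727b-3p (-6.37), miR-728a-3p (10.89), miR-734-3p (8.60) and miR-737-5p (3.19). For MT_Fe_Ov against WT_Ma_Te they were miR-2184-5p (8.99), miR-2188-5p (1.93), miR-2188-3p (1.60), miR-458-3p (8.35), miR-722b-3p (3.33), miR-728a-3p (10.98), miR-730-5p (2.04) and miR-737-5p (1.92). For MT_Fe_Ov against WT_Fe_Ov they were miR-724-3p (10.05), miR-725-3p (-3.29), miR-727a-5p (-2.71) and miR-734-3p (-7.09). The first and the second set share the testis libraries. miR-2184-5p, miR-458-3p, miR-728a-3p, miR-734-3p and both arms of miR-727b were at or under 3 counts in all libraries of a D30 group, so their values depend on the prior count and bound nothing. The same holds for miR-724-3p in the value that compares MT_Fe_Ov with WT_Fe_Ov, since it was at 0 in MT_Fe_Ov at D30, and not in that of WT_Fe_Ov against WT_Ma_Te, where both D30 groups had counts. miR-725-3p and miR-737-5p had counts in every library. The differences of miR-725-3p rest on measured levels in all groups. Those of miR-737-5p rest on few counts in MT_Fe_Ov at D30, where the floors were 28.0, 55.0 and 8.54 RPM. Some calls in these lists did not last. In the first set miR-727a-5p lost its call under 12 alternatives and miR-722b-5p under 10, and in the second miR-2188-3p under 10. miR-737-5p lost its call in the second set under 5, including RLE scaling and DESeq2. The direction of the miR-725-3p difference between WT_Fe_Ov and WT_Ma_Te turned between the stages, lower at D30 and higher at D120.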

How the results depend on the processing

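Of 2226 values of called member comparisons under the alternatives, 1951 kept the call, 273 lost it and 2 changed sign. The sign changed for the difference between D30 and D120 of miR-727b-3p (WT_Fe_Ov against WT_Ma_Te, -10.48 to 0.79 on leaving out 1 library, the latter without replicate 2 of WT_Fe_Ov at D30) and of miR-734-3p (MT_Fe_Ov against WT_Fe_Ov, -7.58 to 0.049, the latter without replicate 3 of MT_Fe_Ov at D30). Counts of called members at D10 were 2 with DESeq2 for each ovary group against testis (of 23 and 9 over all miRNAs), and 0 to 1 for WT_Fe_Ov on leaving out 1 library. At D30, WT_Fe_Ov against testis gave 7 with DESeq2 (128 over all), 9 with a minimum of 1 count (158 over all) and 1 to 6 on leaving out 1 library. MT_Fe_Ov against testis gave 2 with DESeq2 (84 over all) and 2 with the replicate block (53 over all). It gave 0 at an adjusted p of 0.01 (40 over all) and 0 to 4 on leaving out 1 library. MT_Fe_Ov against WT_Fe_Ov gave 2 with the replicate block (51 over all), 2 at 0.01 (40 over all) and 2 to 5 on leaving out 1 library. At D120 WT_Fe_Ov and MT_Fe_Ov against testis gave 8 and 6 at 0.01 (88 and 80 over all). On leaving out 1 library they gave 7 to 16 and 6 to 12. At 0.01 testis from D10 to D30 gave 11 (199 over all). The interaction of WT_Fe_Ov with testis gave 9 at 0.01 (137 over all). That of MT_Fe_Ov gave 4 at 0.01 (94 over all), 5 with RLE scaling (130 over all) and 5 to 9 on leaving out 1 library. For runs that leave out 1 library, here and above, the number over all miRNAs is not given. No drop in those runs is therefore read as particular to the members. Without the 5 most abundant other miRNAs the members' share was 1.55%, 1.41% and 1.71% at D10 (WT_Fe_Ov, WT_Ma_Te, MT_Fe_Ov), 1.75%, 3.70% and 8.57% at D30 and 3.37%, 1.75% and 2.88% at D120, against 1.05%, 0.917%, 1.21%, 0.906%, 2.14%, 4.44%, 1.59%, 1.12% and 1.40% with them. The cause was not tested for any of these. Replicate numbers did not pair the libraries (correlation of same-numbered deviations -0.25 to 0.20, over 0.1 in 2, 0 and 2 of 9 pairs at D10, D30 and D120). Low total miRNA counts limit D30 most: at 54535 counts, a 0 allows 55.0 RPM.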
